A study of Mus musculus with 2 samples.

Results

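Aqp8 and Slc26a3 were followed as a pair through all 4 imaged regions of a transcript panel in mouse intestine. They were chosen by name and make up 2 of the 140 genes measured. Duodenum and colon of C57Bl6 mice aged 6 to 10 weeks were cut at 10 µm and imaged with the MERSCOPE, an instrument that reads single RNA molecules by rounds of barcoded fluorescence and assigns them to segmented cells. The animals were 1 female and 1 male, with 2 regions each, both untreated as far as the labels say. The labels do not state which region holds which tissue, so the regions keep their numbers and were not matched between the animals. Regions were compared 1 section against 1, the animals as 1 female against 1 male with both regions summed, and groups of cells within female region 1 alone. No side has replicates, so there is no test and no p-value. Brackets hold exact 95% intervals, which cover counting error only and take counts as independent, although counts clump in cells.

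Aqp8 is a water channel of the apical membrane of absorptive epithelial cells, and in the mouse large intestine it marks surface colonocytes. Slc26a3, also called Dra, is the apical exchanger that takes up chloride in return for bicarbonate, and its loss in humans causes congenital chloride diarrhoea. Salt uptake by such exchangers draws water out of the lumen, while cells deeper in the crypt secrete chloride through Cftr, helped by potassium channels such as Kcnn4 and Kcnq1. Of 31 other genes listed for surface transport, among them the sodium exchanger that works beside Slc26a3, the panel carried 0. Of the markers listed for absorptive epithelium it carried only Aqp8 and Slc26a3, so the name colonocyte could not be checked against other markers of that cell.

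The windows around the annotated start sites of the pair are shown because both genes were found in the same cells. They run from 250 bases before to 50 bases after the start, on the plus strand, from RefSeq on build GRCm38.p6. The Aqp8 window lies at chr7:123462044-123462343, and its start is the first base of the annotated gene. The Slc26a3 window lies at chr12:31437969-31438268, and its start lies 5077 bases inside the annotated gene span. Capitals mark every match, on either strand, to the TATA box (TATAAA), the CDX motif (TTTAT), the full HNF1 motif or its half-site (GTTAAT), the nuclear receptor half-site (AGGTCA), the GATA motif (AGATAA) or the E-box (CACGTG).
Aqp8: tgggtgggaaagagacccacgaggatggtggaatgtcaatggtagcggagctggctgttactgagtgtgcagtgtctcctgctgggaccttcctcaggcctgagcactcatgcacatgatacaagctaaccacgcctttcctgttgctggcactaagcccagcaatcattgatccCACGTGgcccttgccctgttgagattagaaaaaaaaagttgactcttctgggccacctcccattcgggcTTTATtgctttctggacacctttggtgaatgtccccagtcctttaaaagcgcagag
Slc26a3: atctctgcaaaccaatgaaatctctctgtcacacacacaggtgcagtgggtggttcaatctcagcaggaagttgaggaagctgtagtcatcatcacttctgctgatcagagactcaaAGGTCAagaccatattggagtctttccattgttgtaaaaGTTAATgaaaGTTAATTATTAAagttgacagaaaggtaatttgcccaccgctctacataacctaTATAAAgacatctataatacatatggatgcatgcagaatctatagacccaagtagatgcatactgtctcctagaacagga

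The windows shared 1 of these motifs. TTTAT began at position -6 in Aqp8 and at -29, on the minus strand, in Slc26a3, where it overlaps the TATAAA that begins at -30. It is common, found in 40.01% of 32851 promoter windows. Slc26a3 also held the full HNF1 motif at -84, found in 0.0609% of windows. A half-site GTTAAT stands ahead of it at -94 and another within it at -84 (7.10% of windows), and AGGTCA begins at -133 (16.3%). Aqp8 held CACGTG at -75 (7.15%) and no match to TATAAA (13.6%). The bases A and T made up 48% of the Aqp8 window and 60.7% of the Slc26a3 window. These matches describe letters, and nothing about binding was measured.

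Depth set what could be seen. Panel counts were 45942, 4288, 582 and 3048 in female regions 1 and 0 and male regions 1 and 0, from 13707, 6343, 4068 and 7775 segmented cells, with no cell identifier shared between regions. The median cell held 1 count in female region 1 and 0 in each of the others. Blank barcodes, which match no gene, reached at most 46, 33, 2 and 9 counts in the same order.

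Both genes were abundant in 1 region. Aqp8 had 3811 counts in female region 1, 20 in female region 0, 7 in male region 1 and 9 in male region 0. Slc26a3 had 3272, 10, 8 and 7 counts in the same order. Female region 1 thus stood apart, with Aqp8 at rank 2 and Slc26a3 at rank 4 of the 140 genes and together 15.4% of all panel counts. In female region 0 and male region 0 neither gene exceeded the highest blank, and in male region 1 both did, by a margin of few counts.

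Scaled to 10000 panel counts, Aqp8 stood at 829.5 in female region 1 (803 to 856), 46.6 in female region 0 (28.5 to 72.0), 120.3 in male region 1 (48.4 to 248) and 29.5 in male region 0 (13.5 to 56.1). Slc26a3 stood at 712 (688 to 737), 23.3 (11.2 to 42.9), 137 (59.3 to 271) and 22.97 (9.23 to 47.3). On this scale both genes gave the same order of regions, with female region 1 first and male region 1 second. Counted per cell, second place differed between the genes. Aqp8 came to 0.00315 in female region 0 and 0.00172 in male region 1, and Slc26a3 to 0.00158 and 0.00197, with intervals that overlap. The levels in female region 0 and male region 0 did not differ beyond their intervals, and for Aqp8 the intervals of male region 1 overlapped those of both. A level summed over a section does not tell fewer cells from less RNA per cell.

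**Figure D1:**
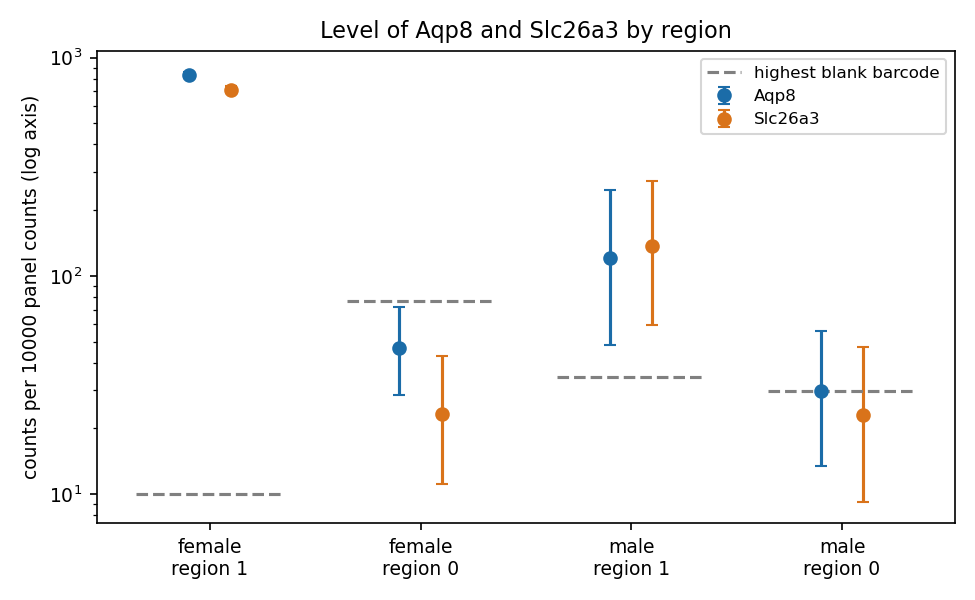
Counts of Aqp8 and Slc26a3 per 10000 panel counts (log axis) in the 4 regions, with exact 95% intervals, and the highest blank barcode of each region as a dashed line. Both genes lie far above the blank in female region 1 (829.5 and 712 per 10000), at or below it in female region 0 and male region 0, and above it in male region 1 on 7 and 8 counts.

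Region 1 was higher than region 0 in both animals for both genes, on very unequal numbers of counts. In the female the ratio was 17.8 for Aqp8 (11.5 to 29.1) and 30.5 for Slc26a3 (16.6 to 63.7), at ranks 3 and 1 of the 101 genes with at least 50 counts. Of all genes with at least 50 counts, 40.6% were at least 2-fold higher in female region 1, and the members are 2 of these. In the male the ratio was 4.07 for Aqp8 (1.29 to 12.3; 7 counts against 9) and 5.99 for Slc26a3 (1.90 to 19.4; 8 against 7). Neither member reached 50 counts there, and 13.3% of the 15 genes that did were at least 2-fold higher in region 1. Per cell, the male ratios were 1.49 (0.470 to 4.49) and 2.18 (0.692 to 7.08), with intervals that span 1.

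Between the animals, Aqp8 came to 763 per 10000 in the female (739 to 787) and 44.1 in the male (25.2 to 71.6), a ratio of 17.3 (10.6 to 30.3). Slc26a3 came to 653 in the female (631 to 676) and 41.3 in the male (23.1 to 68.1), a ratio of 15.8 (9.57 to 28.3). At least 2-fold higher in the female were 34% of 106 genes, these 2 among them. Female region 1 gave 3811 of the 3831 female Aqp8 counts and 3272 of the 3282 Slc26a3 counts, so the sex of the animal and the tissue in that region cannot be told apart.

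All further values come from female region 1. Slc26a3 was found in more cells there and Aqp8 in larger numbers per cell. Aqp8 had a count in 1115 cells (8.13%; 7.68 to 8.60) and Slc26a3 in 1357 (9.90%; 9.40 to 10.4). The mean over positive cells was 3.42 counts for Aqp8 and 2.41 for Slc26a3, and the richest cells held 30 and 31. A single count was all that 47.1% of Aqp8 cells held (44.1 to 50.1), against 55.3% of Slc26a3 cells (52.7 to 58.0). At the other end, 83 cells carried 10 to 19 Aqp8 counts and 11 carried 20 to 30, holding 27.8% and 6.51% of all Aqp8 counts. For Slc26a3 there were 36 cells with 10 to 19 counts and 2 with 20 to 31, holding 12.96% and 1.59% of its counts. The variance of counts over cells, divided by their mean, was 7.70 for Aqp8, the highest of 91 genes with at least 50 counts, and 4.82 for Slc26a3, at rank 3. The cytoskeletal linker Ezr came between them, at 5.24, and the median gene stood at 1.11.

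The genes met in the same cells far more often than each was found overall. Of 1785 cells with either gene, 687 held both (38.5%; 36.2 to 40.8), 428 held Aqp8 alone (24.0%) and 670 held Slc26a3 alone (37.5%). Slc26a3 was present in 61.6% of Aqp8 cells (58.7 to 64.5), and Aqp8 in 50.6% of Slc26a3 cells (47.9 to 53.3). The 687 cells with both held 79.3% of the counts of the pair. In the other regions 1 cell of 25 held both in female region 0, 0 of 14 in male region 1 and 0 of 16 in male region 0. The exact upper bounds of these shares of 0 were 23.2% and 20.6%.

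**Figure D2:**
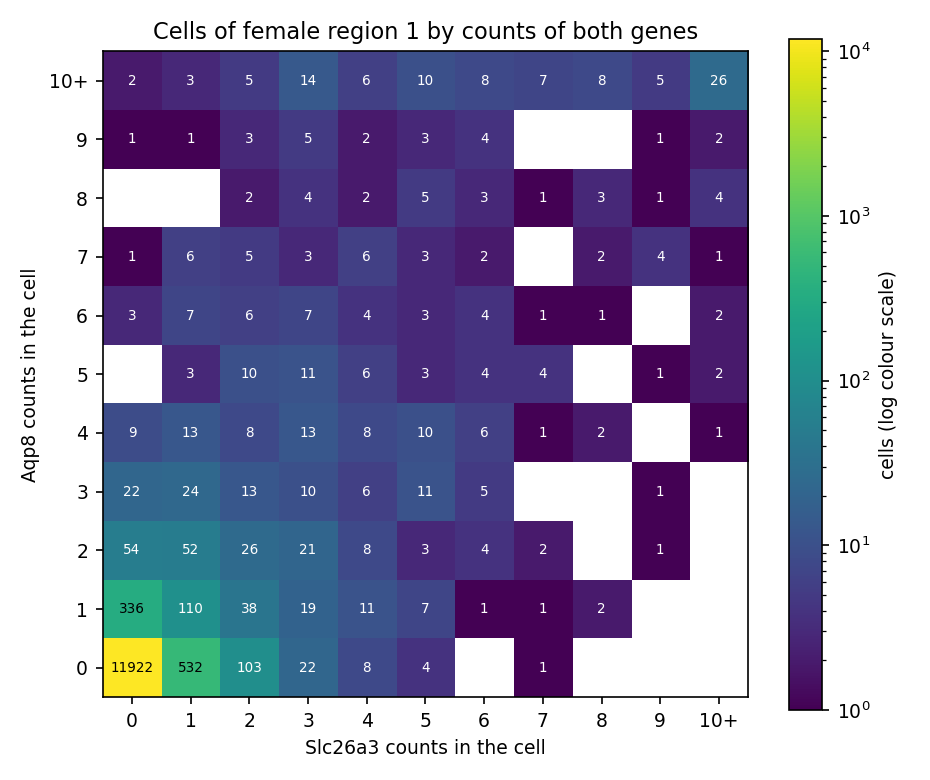
Number of cells of female region 1 by their Aqp8 counts (vertical axis) and Slc26a3 counts (horizontal axis), with 10 or more counts joined and empty cells of the grid left white. The 11922 cells with neither gene fill the corner, 532 cells have a single Slc26a3 count alone and 336 a single Aqp8 count alone, and 26 cells hold 10 or more of both.

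Depth bears on these shares, since the median number of counts of other genes was 11 in cells with both, 3 in cells with Aqp8 alone, 4 in cells with Slc26a3 alone and 0 in the rest. Cells were therefore compared at like numbers of counts from the other 138 genes. Among cells with 3 to 5 such counts, Slc26a3 was present in 43.9% of Aqp8 cells (37.5 to 50.5) and 11.5% of cells without Aqp8 (10.1 to 13.04). Among cells with 11 to 20, the shares were 86.9% (82.1 to 90.9) and 18.7% (15.2 to 22.7). Among cells with 21 to 78, they were 98.0% (94.4 to 99.6) and 13.7% (6.77 to 23.8). Turned round, in cells with 21 to 78 other counts Aqp8 was present in 93.8% of Slc26a3 cells (88.8 to 97.0) and 4.55% of cells without Slc26a3 (0.947 to 12.7). At each of these depths the intervals of the paired shares did not overlap. Above 20 other counts only 10 cells had Slc26a3 without Aqp8, and 3 had Aqp8 without Slc26a3. With every cell of at least 10 panel counts thinned to 10, the expected share of cells with both was 56.2% of cells with either, against 71.4% of the same cells unthinned (68.0 to 74.6).

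The pair was sorted next by which gene list led in the cell, by a rule chosen after the data were seen. A cell was given to a list with at least 3 counts of it and more than of any other. In 813 cells led by the apical and polarity genes (Ezr, the apical constriction gene Shroom3, the junction gene Ctnnb1, Pard3 and Prickle2), Aqp8 stood at 1681 per 10000 panel counts (1620.4 to 1743) and Slc26a3 at 1258 (1206 to 1312). Here 58.4% of cells held both. In 73 cells led by the crypt secretion genes (Cftr, Kcnn4, Slc12a8, Kcnq1 and the guanylin receptor Gucy2c), Aqp8 stood at 12.4 (0.314 to 69.0; 1 count) and Slc26a3 at 74.3 (27.3 to 162; 6 counts), and 0 cells held both. In 575 cells led by stroma genes (Fn1, Vim, Pdgfra, Slit3, Col12a1) the levels were 76.0 (55.2 to 102) and 117 (91.2 to 149). In 267 cells led by muscle genes (Des, Dmpk, Cacna1c) both stood at 31.3 (14.3 to 59.4), and 10 neuron-led cells held 0 Aqp8 counts and 1 Slc26a3 count. Glial genes led in 0 cells.

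Muscle cells are not known to use either gene, so their share was taken as a reference level. Whether stray counts fall as often in every group was not tested, so a share above it need not be expression. Thinned to 10 counts, cells with at least 10 counts held Aqp8 in 68.6% of the apical group, 1.74% of the crypt group, 5.86% of the stroma group and 5.00% of the muscle group. Slc26a3 was held by 66.6%, 5.40%, 9.87% and 4.02% in the same order. Without thinning, the shares over all cells of a group were 66.4%, 1.37%, 5.22% and 3.00% for Aqp8, and 71.3%, 8.22%, 9.57% and 2.62% for Slc26a3. The median depths were 16, 10, 9 and 8 counts. In the crypt group Aqp8 was therefore not above the muscle share. Slc26a3 there, on 6 cells of 73 (3.08 to 17.04), overlapped the muscle share (1.06 to 5.33), whereas the stroma share (7.29 to 12.3) did not.

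Cells richer in the pair carried more Ezr, Shroom3 and Prdx6 and less Fn1, Vim, Des, Slc12a8 and Kcnn4. Levels here are counts per 10000 of the other 138 genes, in cells with 0, 1, 2, 3 to 4, 5 to 9, 10 to 19 and 20 to 52 counts of the pair. Ezr stood at 325, 804, 1431, 1757, 2261, 2460.1 and 2684. Prdx6, a peroxide-reducing enzyme, stood at 83.6, 243, 539, 656, 863, 872 and 832. Ezr climbed at every step, while Prdx6 levelled off from 5 counts of the pair. The apical list did not move as one. Ctnnb1 was highest at 2 counts, at 872, and stood at 392 in the first bin and 706 in the last. Prickle2 stood at 95.1 in the first bin and 20.2 in the last, and Pard3 at 62.7 and 20.2. The matrix gene Fn1 ran the other way, at 1368, 981, 466, 319, 130.3, 95.2 and 60.5. Slc12a8, a member of the cation-chloride cotransporter family, had 153 and 105 at 0 and 1 counts and 0 to 17.1 above that. Kcnn4 had 148, 83.4 and 73.2 at 0, 1 and 2 counts and 0 to 17.1 above that. Gucy2c was flat, between 116 and 175 in all 7 bins.

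**Figure D3:**
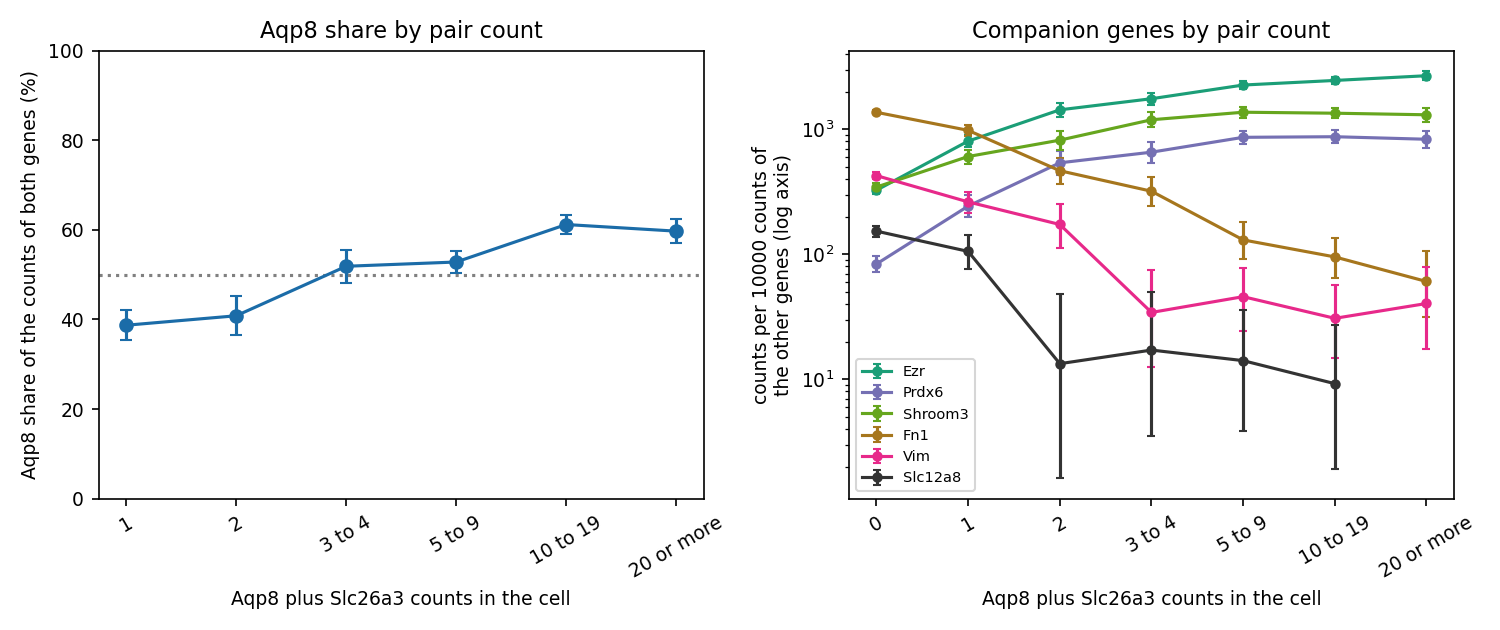
Left, Aqp8 as a percentage of Aqp8 plus Slc26a3 counts against the number of those counts in the cell, and right, 6 companion genes per 10000 counts of the other 138 genes (log axis), with exact 95% intervals in female region 1. The Aqp8 share lies at 38.7% in cells with a single count and at 61.2% and 59.7% in the richest bins, Ezr, Prdx6 and Shroom3 are higher in richer cells, and Fn1, Vim and Slc12a8 are lower; a value of 0 is not drawn.

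Cells with both genes were compared with the 428 and 670 cells that had only 1 of them. Of 42 genes with at least 50 counts, 9.52% were at least 2-fold higher and 31% at least 2-fold lower in cells with both, with a median ratio of 0.734. Higher were the transporter gene Abca8b at 2.61-fold (1.39 to 5.35), Ezr at 2.36-fold (2.15 to 2.60), Prdx6 at 2.28-fold (1.95 to 2.69) and the vesicle gene Syt4 at 2.20-fold (1.23 to 4.17). Shroom3 stood at 1.85-fold (1.65 to 2.08). Of the apical list 1 of 5 genes was past 2-fold, with a median ratio of 0.999.

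Lower in cells with both were 3 of 4 crypt secretion genes, 4 of 4 stroma genes and 2 of 2 muscle genes that had 50 counts. The lowest ratios were 0.0936 for Slc12a8 (0.0382 to 0.200), 0.113 for the muscle filament gene Des (0.0680 to 0.180) and 0.118 for Kcnn4 (0.0504 to 0.246). Fn1 stood at 0.197 (0.164 to 0.237), the intermediate filament gene Vim at 0.198 (0.138 to 0.280), the receptor Nrp1 at 0.203 (0.101 to 0.382), Kcnq1 at 0.267 (0.140 to 0.490), the growth factor receptor Pdgfra at 0.279 (0.209 to 0.369), the calcium channel regulator Cracr2a at 0.298 (0.203 to 0.434) and the muscle kinase Dmpk at 0.309 (0.226 to 0.419). Gucy2c, the crypt gene that was not called, stood at 0.864 (0.660 to 1.14). In cells with at least 10 counts of other genes, a setting added later, Ezr was at 2.53-fold and Slc12a8 at 0.124. Markers of stroma and muscle thus moved with the number of genes of the pair; their part in it was not tested.

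Over the region as a whole, the balance between the genes shifted with their amount. Aqp8 made up 53.8% of the 7083 counts of the pair (52.6 to 55.0). Where a cell held a single count of the pair, that count was Aqp8 in 336 cells and Slc26a3 in 532, an Aqp8 share of 38.7% (35.5 to 42.0). The share was 40.8% at 2 counts (36.6 to 45.1), 51.9% at 3 to 4 (48.2 to 55.5), 52.8% at 5 to 9 (50.3 to 55.3), 61.2% at 10 to 19 (59.0 to 63.3) and 59.7% at 20 to 52 (57.0 to 62.4). It passed from below to above 50% along this series, which joins sets of cells that differed in balance, as given further below. The last pair of bins did not differ beyond their intervals. Sorted by counts of the other genes instead, the share was 41.4%, 44.0%, 48.0%, 52.5%, 52.8% and 59.7% at 0, 1 to 2, 3 to 5, 6 to 10, 11 to 20 and 21 to 78 counts.

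From cell to cell the balance spread more widely than counting error alone would give. In the 430 cells with at least 5 counts of the pair (median 9), the Aqp8 share averaged 56.2% with an SD of 19.9 percentage points over cells. Binomial counting error around the pooled share of 58.2% would give 16.6. The lower and upper quartiles were 41.7% and 71.4%. Of these cells, 5 had no Aqp8 and 7 had no Slc26a3.

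Cells leaning to either gene were compared across the panel. Aqp8-leaning cells, with Aqp8 at least 2 in 3 of the counts of the pair, numbered 144, and Slc26a3-leaning cells, with at most 1 in 3, numbered 57. They held 2630 and 832 counts of other genes. The median cell held 10 and 6 counts of the pair, and 15 and 12 counts of other genes. The classes thus differed in amount as well as in balance, and the ratios were not matched for amount. Of 12 genes with at least 50 counts over both, 0% were at least 2-fold higher and 0% at least 2-fold lower in Aqp8-leaning cells. The median ratio was 0.980. These 0 calls come from a rule of size with no test.

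Clec2h, a C-type lectin-like gene, came nearest to 2-fold. It stood at 269.96 per 10000 in Aqp8-leaning cells (211 to 341), 219 in the 229 cells between (178 to 266) and 144 in Slc26a3-leaning cells (74.5 to 252), a ratio of 1.87 (1.01 to 3.79). That interval did not span 1, and it stayed above 1 per cell, at 3 or more counts of the pair and with limits at 1 in 4 and 3 in 4. It spanned 1 with a split at 1 in 2 (1.32; 0.942 to 1.88) and at 10 or more counts of the pair (1.45; 0.531 to 5.54). In the deep identifier blocks described further below, a setting added later, it also spanned 1 (1.80; 0.968 to 3.66). The genes listed next had intervals that span 1. Ezr had a ratio of 1.14 (0.970 to 1.36), Shroom3 1.20 (0.954 to 1.52), Prdx6 0.957 (0.737 to 1.26), Ctnnb1 0.944 (0.699 to 1.29), Gucy2c 0.672 (0.361 to 1.30) and the nuclear receptor gene Ppard 0.865 (0.469 to 1.68). Ratios of 2 or more lie outside the intervals of Ezr, Shroom3, Prdx6 and Ctnnb1, while those of Gucy2c and Clec2h are too wide to exclude a 2-fold difference in their own direction. Counts of stroma, muscle, neuron and glia markers came to 411 per 10000 in Aqp8-leaning and 481 in Slc26a3-leaning cells.

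**Figure D4:**
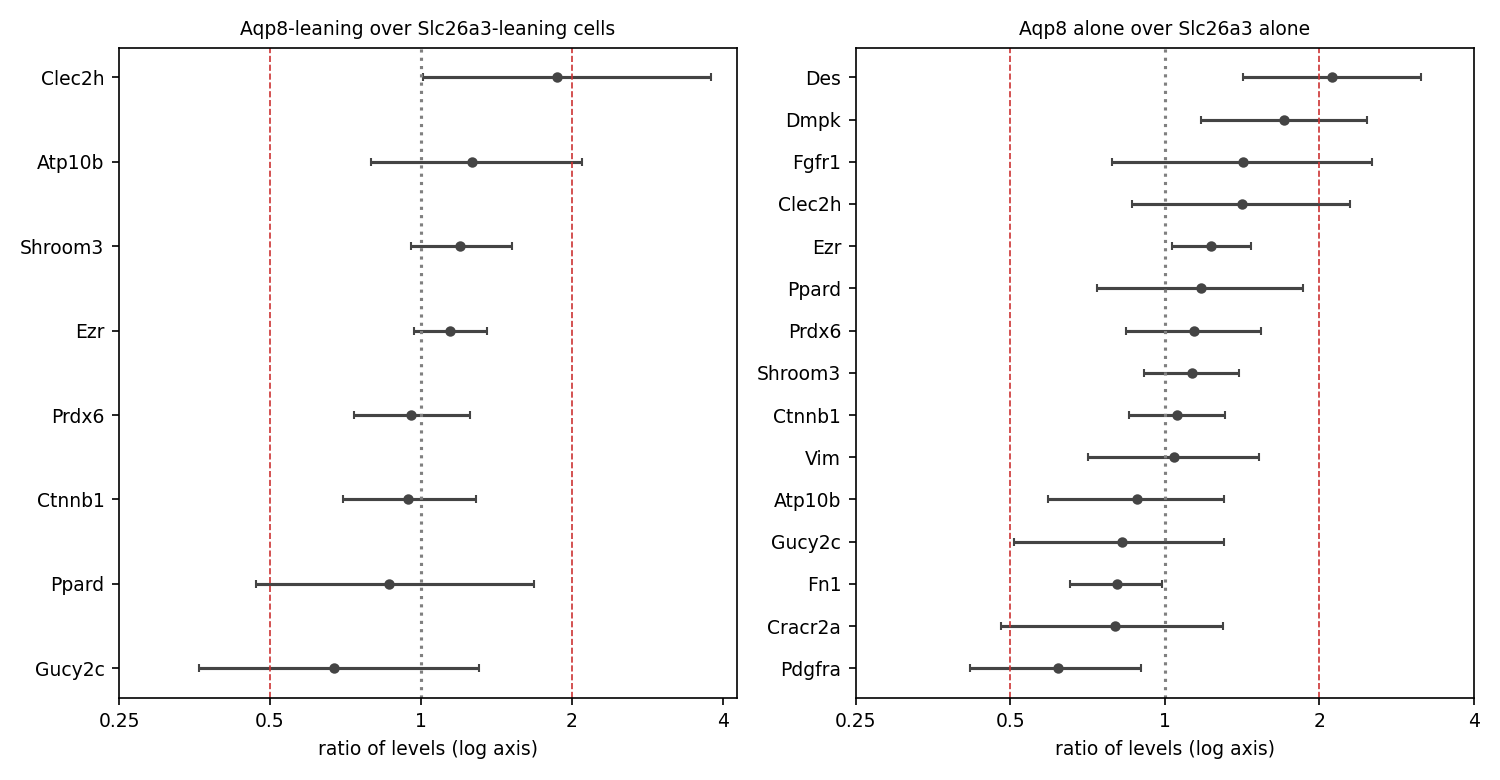
Ratio of levels (log axis) with exact 95% intervals for the genes named in the text that had at least 50 counts, for Aqp8-leaning over Slc26a3-leaning cells (left) and for cells with Aqp8 alone over cells with Slc26a3 alone (right), with dashed lines at 0.5 and 2. On the left no gene shown reaches either line, Clec2h being highest at 1.87, and on the right Des passes 2 at 2.12.

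Cells with Aqp8 alone were then compared with cells with Slc26a3 alone. The shallow identifier blocks described further below held 128 of the 428 cells with Aqp8 alone and 53 of the 670 with Slc26a3 alone. The main ratios were not matched for block. Of 23 genes with at least 50 counts, 4.35% (1 gene) were at least 2-fold higher in cells with Aqp8 alone and 0% at least 2-fold lower, with a median ratio of 1.04. That gene was Des, at 298 per 10000 in cells with Aqp8 alone and 141 in cells with Slc26a3 alone (2.12-fold; 1.42 to 3.16). Dmpk stood at 1.71-fold (1.18 to 2.48) and Ezr at 1.23-fold (1.03 to 1.47). Pdgfra was at 0.619 (0.417 to 0.9004) and Fn1 at 0.806 (0.653 to 0.989). Shroom3 (1.13), Prdx6 (1.14), Clec2h (1.41) and Vim (1.04) had intervals that span 1. In cells with at least 10 other counts, a setting added later, Des stood at 3.93-fold (2.20 to 7.21) and Dmpk at 2.70-fold (1.51 to 4.86). In that setting Pdgfra was past 2-fold lower, at 0.478 (0.234 to 0.901), and Pfn1 stood at 0.652 (0.423 to 0.979). In deep identifier blocks only, also added later, Pdgfra (0.693; 0.462 to 1.02) and Pfn1 (0.976; 0.768 to 1.23) had intervals that span 1. In cells with 1 count of the pair theirs again spanned 1 (0.725; 0.474 to 1.09 and 0.885; 0.670 to 1.16). Des stood at 2.22-fold (1.46 to 3.38) and 1.96-fold (1.29 to 2.98) in these settings, and Dmpk at 1.63-fold (1.08 to 2.44) and 1.81-fold (1.20 to 2.73).

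The balance was also read from the side of each companion gene. For 23 genes that shared at least 100 cells with the pair, the Aqp8 share of the pair in those cells lay between 49.4% (Cracr2a) and 59.7% (Clec2h), with a median of 55.9%. The crypt genes did not share 1 value. In cells with Gucy2c the share was 53.8% (51.2 to 56.3), within that range. In cells with Slc12a8 the share was 39.3% (30.6 to 48.6; 48 Aqp8 and 74 Slc26a3 counts), in cells with Cftr 35% (20.6 to 51.7; 14 and 26 counts), in cells with Kcnn4 45.9% (35.8 to 56.3) and in cells with Kcnq1 54.6% (47.7 to 61.4). For Slc12a8 the interval lay under the 54.1% of all other cells with the pair, a comparison not matched for the amount of the pair. Over all cells with 1 or 2 counts of the pair the Aqp8 share was 38.7% and 40.8%. Both values lie inside the Slc12a8 and Cftr intervals. A difference at like amounts was not tested. Cells with Slc12a8 or Cftr held little of the pair: per 10000 counts of the other genes, Aqp8 and Slc26a3 came to 181.6 and 279.99 with Slc12a8 and to 130.5 and 242 with Cftr, against 2535 and 1922 with Prdx6 and 2477 and 1671 with Clec2h.

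Across the 1256 cells with at least 10 counts, the gene most like each member was the other (Pearson r 0.68 of log-scaled levels, over 90 genes). Next for Aqp8 came Ezr (0.58), Prdx6 (0.51), Shroom3 (0.37) and Clec2h (0.27). For Slc26a3 they were Ezr (0.55), Prdx6 (0.51), Shroom3 (0.37) and the flippase gene Atp10b (0.27). Fn1 was least like either, at -0.51 and -0.44. These cells share a section and a total that links all genes, so the values are descriptions.

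Within the section the balance differed between sets of neighbouring identifiers. Cell identifiers carry 5 digits that change in blocks; what they encode is not given in the sources used here, and splitting by them was chosen after the data were seen. Of 48 blocks, 12 were nearly silent, with 3365 cells and 28 panel counts, and held 0 counts of the pair. In 10 shallow blocks (under 2 panel counts per cell; 2199 cells) Aqp8 made up 71.1% of the pair (65.9 to 75.8; 243 Aqp8 and 99 Slc26a3 counts). In 26 deep blocks (8143 cells) it made up 52.9% (51.7 to 54.1; 3568 and 3173 counts). Per 10000 panel counts Aqp8 stood at 898 in shallow blocks (789 to 1018) and 826 in deep ones (799 to 853), and Slc26a3 at 366 (297 to 445) and 734 (709 to 760.4).

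Where a cell held 1 count of the pair, it was Aqp8 in 67.8% of 149 cells of the shallow blocks (59.6 to 75.2) and 32.7% of 719 cells of the deep blocks (29.3 to 36.2), so the difference stood at equal pair counts. In the shallow blocks that share lay near the 71.1% of all their pair counts. The share below 50% in single-count cells of the whole region thus came from the deep blocks. Blocks with at least 40 counts of the pair ranged from 59.4% to 80.8% in 6 shallow blocks (median 72.2%) and from 31.7% to 61.6% in 19 deep blocks (median 53.2%). Both ranges overlap through the lowest shallow block. Of cells with either gene, 14.2% held both in shallow blocks (9.80 to 19.7) and 41.7% in deep ones (39.3 to 44.2), where depth per cell also differed, at 1.23 and 5.31 counts. Of 89 other genes with at least 50 counts, 7.87% were at least 2-fold higher and 12.4% at least 2-fold lower in shallow blocks.

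**Figure D5:**
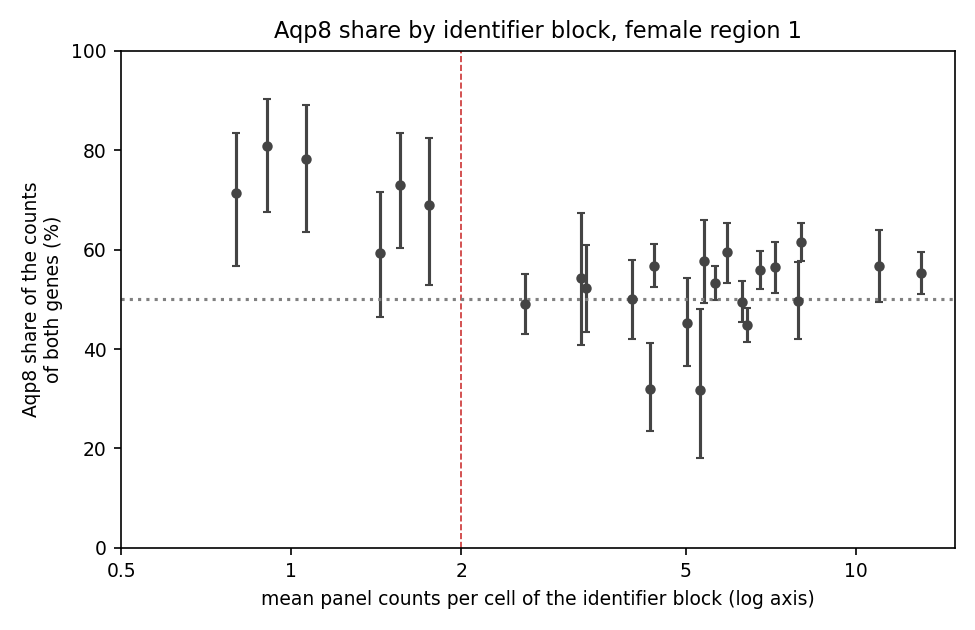
Aqp8 as a percentage of the counts of Aqp8 and Slc26a3 (vertical axis, exact 95% intervals) against the mean panel counts per cell (log axis) of each identifier block of female region 1 with at least 40 counts of the pair. The 6 blocks left of the dashed line at 2 counts per cell lie between 59.4% and 80.8%, and the 19 to its right between 31.7% and 61.6%.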

How the data were processed

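Transcripts of 140 genes were imaged in sections of 1 female and 1 male mouse, 2 regions each. The authors deposited 1 table of raw counts per region, each value a count of 1 gene in 1 segmented cell, with 40 blank barcodes, per the file headers. The submitters' processing notes name Seurat without a role. How transcripts were decoded and cells segmented is not given in the sources used here.

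The pair, the lists and the comparisons were chosen with earlier results of these data known. Counts were summed over cells, and 95% intervals were exact, Poisson for levels and Clopper-Pearson binomial for shares and ratios. Ratios of classes use counts per 10000 of the other 138 genes. Thinning to 10 counts used the hypergeometric expectation. Identifier blocks were digits 9 to 13. Named genes were up to 10 per direction with at least 50 counts, a ratio of at least 2 and an interval off 1, plus the 5 most alike; the other genes shown beside them were chosen after their values were seen. The scripts were tested on simulated counts. Some genes tested are counted but not reported here by name. No doublets were removed, and segmentation errors were not corrected. Alternatives were counts per cell, deep cells only, blank subtraction, other class limits and identifier blocks. Software was Python 3.11.15, pandas 2.3.3 and scipy 1.17.1.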

Additional observations from a re-analysis of the deposited data

How the results depend on the processing

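No paired analysis was possible because each animal is 1 sample and no result comes from a test. Counted per cell, the ratios of female region 1 over region 0 moved to 88.2 for Aqp8 and 151 for Slc26a3, and with silent blocks left out to 112 and 193. Female over male moved to 141 and 129 per cell, to 162 and 148 per cell without silent blocks, and to 94.1 and 28.6 in cells with at least 10 counts. Each of these kept its direction. The share of cells with both genes moved from 38.5% to 71.4% in cells with at least 10 counts, 48.2% with 2 counts needed of each gene, 56.2% after thinning, 14.2% in shallow blocks and 41.7% in deep blocks. The Aqp8 share of the pair moved from 53.8% to 56.7% in cells with at least 10 counts, 56.2% as a mean over cells with at least 5 counts of the pair and 71.1% in shallow blocks, and in cells with 1 count of the pair it turned to 38.7%. Genes at least 2-fold higher in Aqp8-leaning cells numbered 0 of 12. There was 1 of 8 with at least 10 counts of the pair (Atp10b) and 1 of 8 with limits at 1 in 4 and 3 in 4 (Clec2h). There was 1 of 12 per cell (Clec2h), 1 of 18 with a split at 1 in 2, and 36 of 115 with no minimum of counts. Genes at least 2-fold lower numbered 0 of 12, with 1 of 15 at 3 or more counts of the pair (Fn1), 1 of 8 at 10 or more and 23 of 115 with no minimum. The names given were chosen after their values were seen. With no minimum, 35 genes had 0 counts on 1 side, and each of these was counted as past 2-fold. The cause was not tested. Leaving out the 20 richest cells gave no ratio, since it removed all counts of the gene in the other regions, and Aqp8 had 0 counts in male region 1 cells with at least 10 counts. Settings on silent, shallow and deep blocks and on cells with 1 count of the pair were added after seeing the data. Depth limits all values outside female region 1.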

Other observations

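The shallow identifier blocks of female region 1, where Aqp8 outweighed Slc26a3, also differed from the deep ones in other genes. Per 10000 counts of the other 138 genes, Fgfr1, a growth factor receptor, stood at 283 in shallow and 98.4 in deep blocks (2.88-fold; 2.18 to 3.75). The potassium channel gene Kcnn4 stood at 212 and 95.2 (2.22-fold; 1.62 to 2.996), and the protease gene Pcsk5 at 71.9 and 32.4 (2.22-fold; 1.25 to 3.71). Vim was lower in shallow blocks, at 139.6 against 312 in deep blocks (0.448; 0.307 to 0.633). The blocks were not assigned to a tissue, and with 1 section none of this was tested.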
